A study of Mus musculus with 48 samples.

Results

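The transcripts described here are those of 10 mouse genes that fold proteins in the endoplasmic reticulum (ER) or answer when folding fails. The 6 ER chaperones are Hspa5, Hsp90b1, Calr, Canx, Pdia3 and Pdia4, and the 4 transcription factors of the unfolded protein response (UPR) are Xbp1, Atf4, Ddit3 and Atf6. They were chosen by their known roles, with earlier results of these data known, and gene identifiers were matched to symbols. All 10 were found among the 23862 genes of the series. Of the 10, 9 were listed in all 48 libraries. Hspa5 was listed in 40, with 4 of the 12 cytosolic libraries, so it has no test in the cytosol.

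All libraries came from E14TG2a, 1 line of mouse embryonic stem cells grown in "2i + LIF" medium, and all cells of the groups compared received 1 µM flavopiridol. Flavopiridol blocks CDK9, without which RNA polymerase II does not pass into elongation. The inhibitor is used to stop new transcription, so that existing mRNA decays or moves between compartments. How complete the block was here was not tested. Cells were harvested at 30, 60, 120 and 240 min, as the sample titles give it (the protocol has 180 min as the last time), and separated with digitonin, which frees the cytosol, and then with NP-40, which frees the membrane fraction with the ER and leaves the nucleus. A sample of whole cells was set aside as total RNA. Each of these 4 fractions has 3 replicates at each of the 4 times, which were independently passaged cultures. Polyadenylated RNA was sequenced. The buffers held cycloheximide, which stalls ribosomes on their mRNA. No untreated time course was analysed here, so decay and an answer of the cells to the inhibitor cannot be told apart.

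Each deposited value divides a gene's level by the level the same fraction had at 0 min, so a ratio of 1 means no change and a ratio below 1 is the share left. Ratios of the membrane fraction and the cytosol therefore compare what is left in each, not how much RNA each holds. Depth is unknown, because the values are ratios. A gene at 0 is not listed in that library, but a missing gene need not have been lost. Cytosolic Hspa5, for example, was missing in replicates 1 and 2 at 30 min and had 0.886 and 0.451 there at 60 min. Why genes are missing was not tested. In these bulk libraries fewer cells and less RNA per cell cannot be told apart.

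Libraries listed between 15067 and 19501 genes. At 240 min the median gene tested kept a ratio of 0.482 ± 0.021 (SD, n = 3) in total RNA and 0.348 ± 0.023 in nuclei. It kept 0.477 ± 0.014 in the cytosol, about the same as the 0.476 ± 0.038 of membranes. At 30 min the nuclear library of replicate 1 stood apart, with a median of 0.592 against 0.949 and 0.823. Of 11 stem cell markers, 8 were listed in all 48 libraries and 0 in none. Of 14 markers of other cell types, 3 were listed in all libraries and 2 in none, but ratios give no level by which to rank the markers.

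Proteins that enter the secretory pathway are made by ribosomes on the ER, and chaperones in its lumen fold them, trim their sugars and join their cysteines. When unfolded protein accumulates, the sensors IRE1, PERK and ATF6 act through transcription factors that switch on chaperone genes. IRE1 splices the Xbp1 mRNA at the ER membrane, PERK signalling raises translation of Atf4, and ATF6 is itself made as a protein anchored in the ER membrane.

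The known link between both groups is a promoter sequence, the ER stress response element, which is shown because ATF6 and XBP1 act on chaperone genes through it. It was searched on both strands as CCAAT, then 9 bases of any kind, then CCACG, in windows from 250 bases before to 50 after each RefSeq gene start of GRCm38.p6. Of 32851 windows in all, 39 (0.119%) held it. Of the 9 members with a window, 4 held it, and all 4 are chaperones. Atf6 had no window. Hsp90b1 held it at 2 places. The matches follow 5′ to 3′ on the strand that carries the motif, with its fixed letters in capitals.
Hspa5, chr2:34772025-34772043: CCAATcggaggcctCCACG
Calr, chr8:84847075-84847093: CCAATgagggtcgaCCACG
Canx, chr11:50325800-50325818: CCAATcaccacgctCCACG
Hsp90b1, chr10:86705638-86705656: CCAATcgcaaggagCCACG
Hsp90b1, chr10:86705533-86705551: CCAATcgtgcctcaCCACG
In Hspa5, Canx and the first Hsp90b1 match the motif ran with the gene, and in Calr and the second Hsp90b1 match it ran against it. Counted from the RefSeq start, the centre of the match lay at position -56 in Hspa5, -153 in Calr, -136 in Canx, and -203 and -98 in Hsp90b1. A match is a description of these letters, and with transcription blocked the data do not bear on whether the sites were used.

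Because these data follow the loss of mRNA, the 3′ untranslated regions (UTRs) were searched for ATTTA, the pentamer at the core of AU-rich decay elements, in GENCODE M21 transcripts of GRCm38. Of 20636 genes with such a region, 61.56% held at least 1. Among the members Hspa5 held 10, Canx and Atf6 7 each, Xbp1 3, Calr, Pdia3 and Pdia4 2 each and Hsp90b1 1. Atf4 and Ddit3 held 0. The lengths searched differed widely, with 5205 bases in Atf6, 2321 in Canx and 1434 in Hspa5. Xbp1 had 989 bases, Ddit3 197 and Atf4 81, so the counts do not compare equal lengths. The longer element TTATTTATT was in 0 of the 10 members, against 6.91% of all genes. The windows of Xbp1 are shown because its mRNA fell furthest by 240 min, and that of Hsp90b1 because it is the only one of its gene, with the pentamer in capitals. The last pair of windows of Xbp1 overlap.
Xbp1, position 882 of its 3′ UTR: aatgatgaaaATTTActatgtaaat
Xbp1, position 945: tgctttctccATTTAtttaaaacta
Xbp1, position 949: ttctccatttATTTAaaactaccct
Hsp90b1, position 200: aatttgtactATTTAactgactatt

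In GRCm38, Hspa5 spans chr2:34771970-34777547 on the plus strand with 9 exons, Hsp90b1 chr10:86690209-86705509 on the minus strand with 18, and Xbp1 chr11:5520659-5525893 on the plus strand with 5. Atf4 spans chr15:80255184-80257541 on the plus strand with 3 exons, while Atf6, the longest of the members, spans chr1:170704674-170867771 on the minus strand with 16. Hsp90b1, Pdia3, Pdia4, Ddit3 and Atf6 overlap other annotated genes. Ddit3 shares its place with a second annotated entry of the same symbol and strand, and lies opposite to Mars, so its reads may have been split. The library kit keeps strand, but the strand setting of the counting is not given in the sources used here.

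How far each transcript had fallen was asked first. Xbp1 and Atf4 kept the least of their start, Hspa5 came next, and the other chaperones and Atf6 kept much more. The Xbp1 ratios in total RNA were 0.729, 0.870 and 0.814 at 30 min and 0.0222, 0.0197 and 0.0204 at 240 min. Those of Atf4 were 0.465, 0.513 and 0.519 at 30 min and 0.0382, 0.0465 and 0.0439 at 240 min. Both were thus under 0.05 of their start in all 3 replicates at 240 min, and the ratios of Atf4 at 30 min already lay in the range that Canx reached at 240 min.

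**Figure D1:**
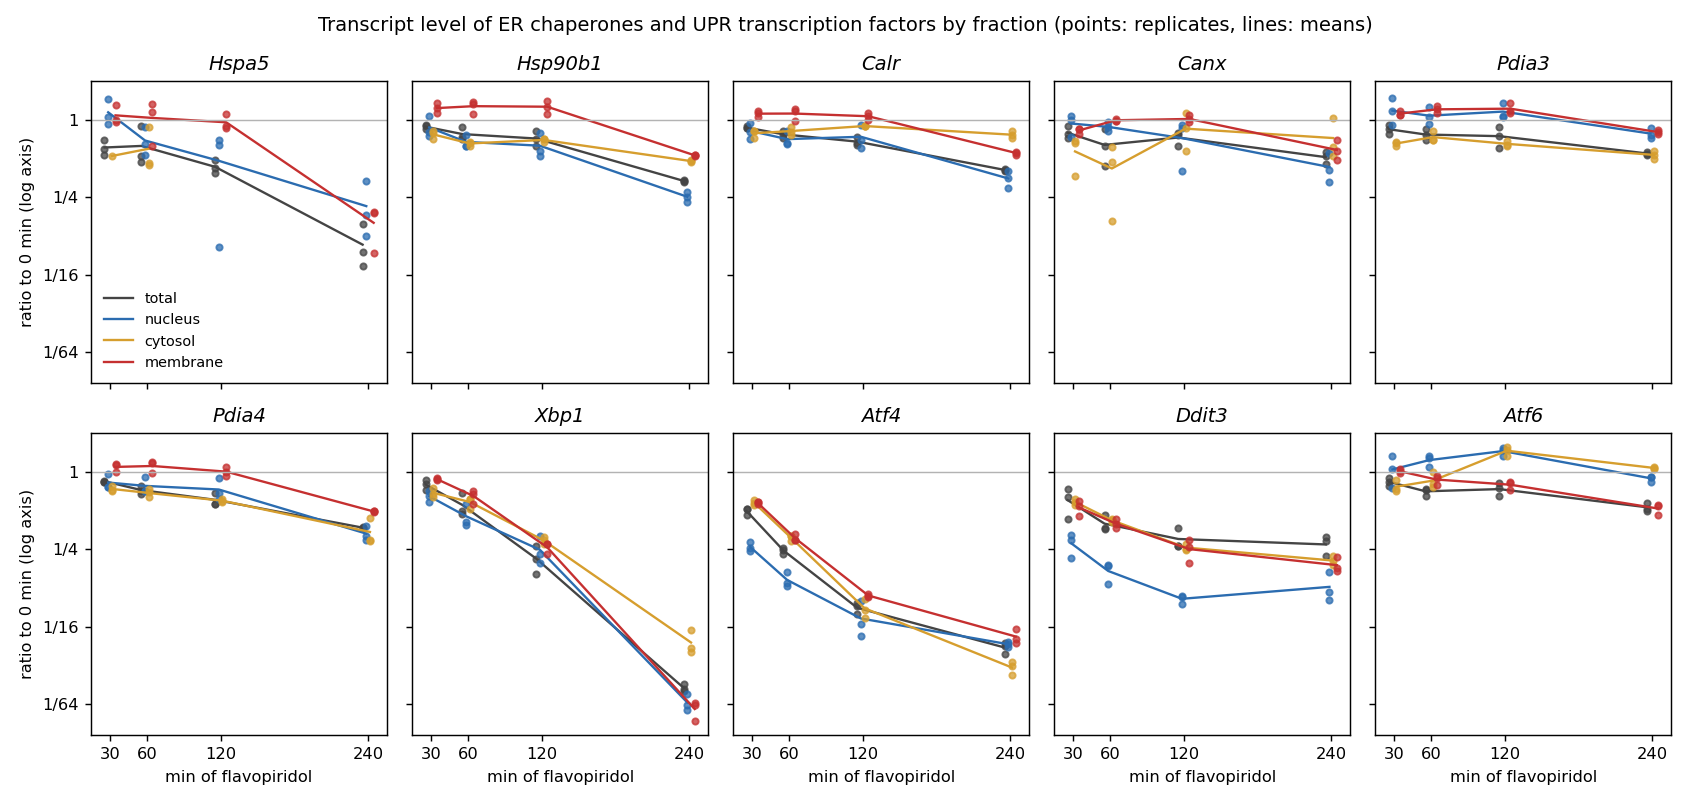
Ratio to 0 min of each member (log axis) against min of flavopiridol, with 1 panel per gene, 1 colour per fraction, points for the 3 replicates and lines for their means. In the membrane fraction (red) Hsp90b1, Calr, Pdia3 and Pdia4 stay near or above 1 until 120 min, while Xbp1 and Atf4 fall below 1/16 of the start by 240 min in all 4 fractions, and Hspa5 has few cytosolic points.

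Ddit3 encodes CHOP, a factor tied to cell death under lasting stress, and it fell early and then levelled off. Its total ratios were 0.645, 0.745 and 0.432 at 30 min, 0.268, 0.370 and 0.268 at 120 min and 0.312, 0.289 and 0.221 at 240 min. The replicates at 120 and 240 min overlapped. Atf6 fell least of the factors, with 0.791, 0.904 and 0.842 at 30 min and 0.500, 0.581 and 0.523 at 240 min. At 240 min in total RNA the order of the factors, lowest first, was Xbp1, Atf4, Ddit3 and Atf6, and no replicates of neighbours in this order overlapped.

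Among the chaperones, Hspa5 fell furthest. Hspa5 encodes BiP, the Hsp70 of the ER lumen and a regulator of the UPR sensors. Its total ratios were 0.538, 0.599 and 0.705 at 30 min, 0.424, 0.487 and 0.391 at 120 min and 0.155, 0.0931 and 0.0725 at 240 min. Hsp90b1 encodes GRP94, the Hsp90 of the ER, and kept 0.336, 0.343 and 0.332 at 240 min. Calr encodes calreticulin, a soluble lectin chaperone that binds calcium, and kept 0.406, 0.408 and 0.417. Pdia4 encodes ERp72, a disulfide isomerase, and kept 0.374, 0.369 and 0.368. The replicates of these 3 genes lay close together and overlapped with none of those of Hspa5. Canx, which encodes calnexin, the membrane-bound relative of calreticulin, kept 0.529, 0.566 and 0.455, and Pdia3, which encodes ERp57, the isomerase that works with both lectins, kept 0.570, 0.544 and 0.541. Canx and Pdia3 overlapped with each other and with Atf6, so the slowest chaperones and the slowest factor were not apart in total RNA.

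Whether a gene fell was tested with limma as the slope of its log2 ratio per h, fitted over all genes. In total RNA 9 of the 10 members fell and 0 rose, against 56.9% and 3.39% of all genes tested, so a fall by itself does not set the members apart. Canx was the member that did not pass (-0.14 ± 0.06 per h, SE, limma adjusted p = 0.0594). Xbp1 fell by 1.53 ± 0.07 per h on the log2 scale (adjusted p = 1.16e-08), at the 0.5 percentile of all slopes, and Atf4 by 0.97 ± 0.10 (adjusted p = 4.05e-06), at the 4.9 percentile. Hspa5 fell by 0.77 ± 0.09 per h (adjusted p = 1.19e-05), at the 9.4 percentile. The other members lay between the 30.5 percentile (Hsp90b1) and the 60.6 percentile (Canx), where the median slope of all genes was -0.22 per h. With libraries centred on the median gene, 5 members fell and 0 rose in total RNA, against 3961 and 3672 of all 12762 genes. Canx, Pdia3 and Atf6 then had slopes above 0 (0.08, 0.06 and 0.06 per h, none of which passed). Canx passed without replicate 2 (-0.20, adjusted p = 0.0157), and Ddit3 lost its call without replicate 3 (-0.26, adjusted p = 0.0638).

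In the nucleus 9 of 10 members fell and 0 rose, against 61.9% and 3.32% of all genes, and Atf6 did not (-0.08 ± 0.07 per h, limma adjusted p = 0.328). The Ddit3 call in the nucleus (-0.28 per h, adjusted p = 0.0398) was lost without replicate 2 (adjusted p = 0.174), without replicate 3 (adjusted p = 0.198) and without the nuclear 30 min library of replicate 1 (adjusted p = 0.0616). That of Pdia3 (-0.16 per h, adjusted p = 0.0232) was lost without replicate 2 (adjusted p = 0.207) and without replicate 3 (adjusted p = 0.092). In the membrane fraction all 10 fell, against 62.2% of all genes, where 4.09% rose. The Canx call there (-0.18 ± 0.06 per h, adjusted p = 0.013) was lost without replicate 2 (adjusted p = 0.085) or 3 (adjusted p = 0.075). In the cytosol 6 of the 9 tested members fell and 0 rose, against 67.1% and 2.95% of all genes, and the 3 that did not pass were Calr (-0.01 ± 0.03 per h, adjusted p = 0.66), Canx (0.18 ± 0.14 per h, adjusted p = 0.279) and Atf6 (0.14 ± 0.07 per h, adjusted p = 0.0957). Cytosolic Pdia3 (-0.11 per h) lost its call without replicate 2 (adjusted p = 0.0506). Centred on the median gene, 3 members fell and 2 rose in the nucleus, where 3897 and 3954 of all 13343 genes did. In the cytosol 3 fell and 5 rose, against 3887 and 3520 of 11979 genes. In the membrane fraction 4 fell and 0 rose, against 3837 and 3513 of 12408 genes. Xbp1 and Atf4 fell in all 4 fractions under every scaling that was run, at up to the 18.3 percentile (Atf4 in the nucleus) and elsewhere at or below the 5.6 percentile.

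**Figure D2:**
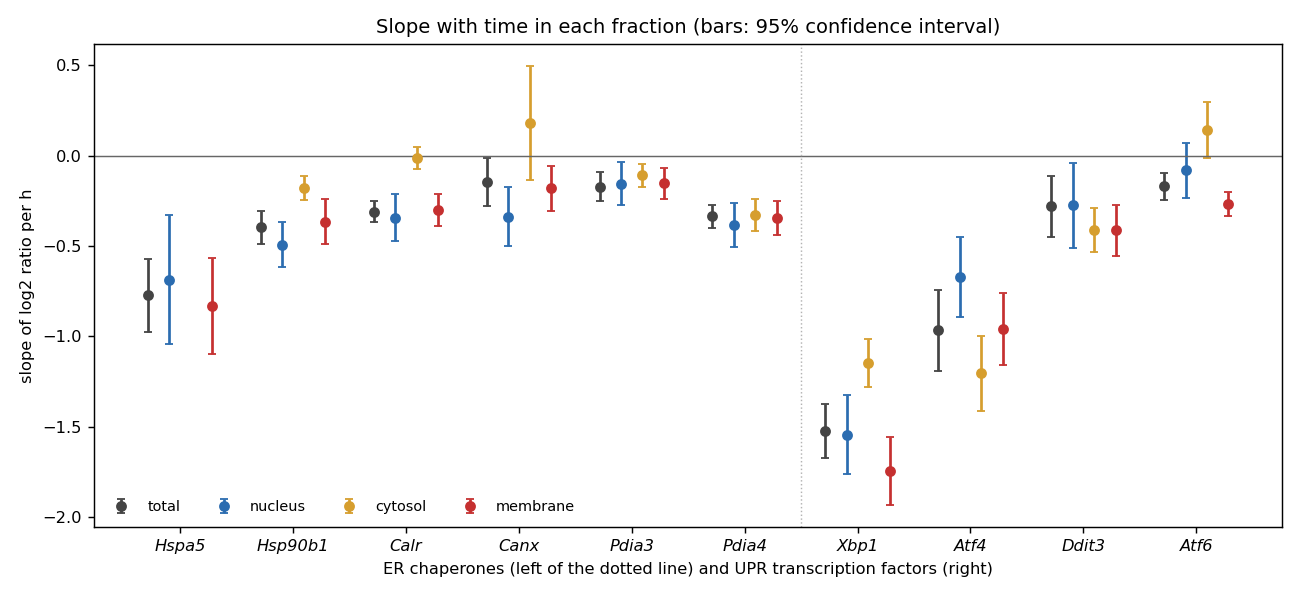
Slope of the log2 ratio per h for each member in the 4 fractions, with points for the limma estimate and bars for its 95% confidence interval. Xbp1 and Atf4 have the steepest slopes, down to -1.75 per h for Xbp1 in the membrane fraction, Calr, Canx and Atf6 in the cytosol have intervals that include 0, and Hspa5 has no cytosolic point.

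In the nucleus the chaperones spread widely by 240 min. Nuclear Hsp90b1 kept 0.276, 0.232 and 0.251 of its start and nuclear Calr 0.4, 0.357 and 0.298. Nuclear Pdia3 kept 0.877, 0.767 and 0.723, above every nuclear ratio of the other 5 chaperones at that time. Atf6 kept 0.929, 0.925 and 0.848, the highest nuclear ratios but for an overlap with Pdia3. Nuclear Xbp1 kept 0.0152, 0.0187 and 0.0139 and nuclear Atf4 0.0435, 0.0475 and 0.0455, which did not overlap.

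The chaperones were then set against the factors as groups. Per replicate, the median log2 ratio of the 6 chaperones minus that of the 4 factors was 0.25 ± 0.15 (SD, n = 3) in total RNA after 30 min and 1.86 ± 0.13 after 240 min. This gap was 0.62 ± 0.09 and then 2.44 ± 0.14 among membrane libraries. Nuclear libraries had a gap of 1.06 ± 0.22 already at 30 min and of 2.17 ± 0.12 at the end. Cytosolic libraries, with 5 chaperones listed in most, began at 0.14 ± 0.09 and ended at 2.43 ± 0.20. The gap was above 0 in all 3 replicates of each fraction at each time. At 240 min the log2 ratio of the median chaperone stood at -1.36 ± 0.01 in total RNA and -0.90 ± 0.06 in the membrane fraction, and that of the median factor at -3.22 ± 0.12 and -3.34 ± 0.10. The medians do not describe every factor: at 240 min cytosolic Atf6 had 1.06, 1.11 and 1.09, above every chaperone ratio listed there (highest 1.04, Canx). In each fraction at 240 min Xbp1 and Atf4 lay below the factor median and Ddit3 and Atf6 above it. Mean Ddit3 ratios were 0.274 in total RNA and 0.189 in the membrane fraction. Genes are not replicates, so the gap has no test.

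**Figure D3:**
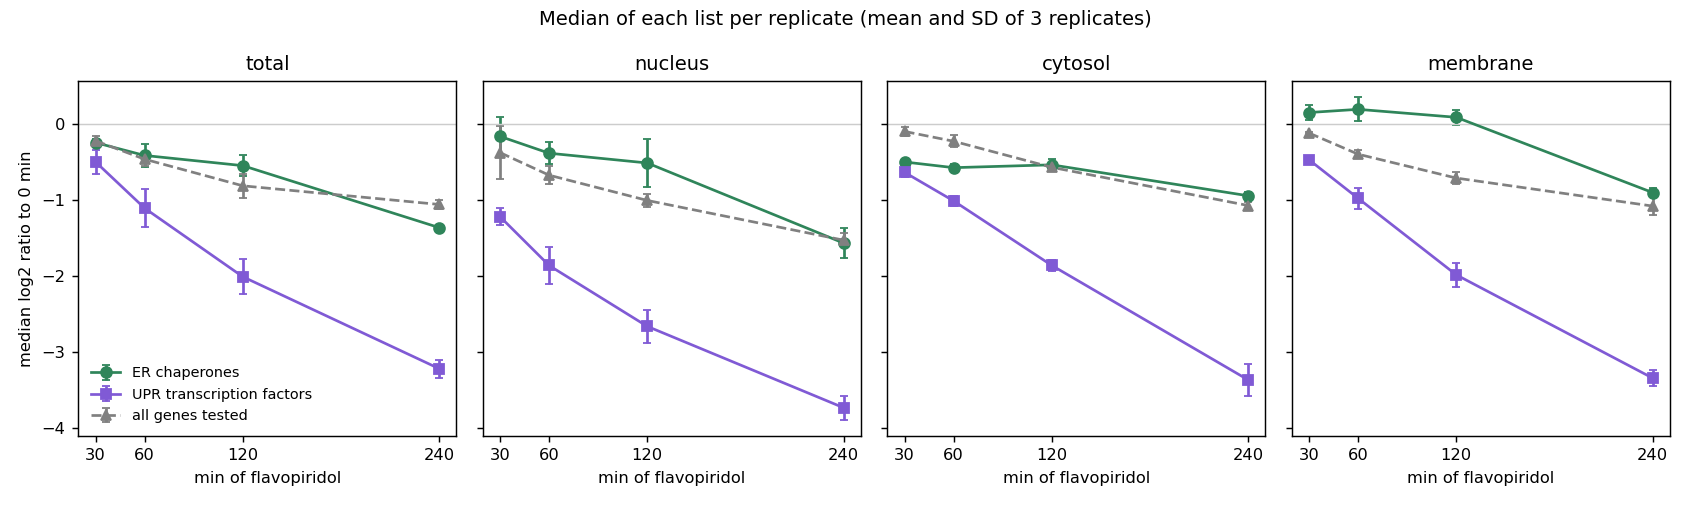
Median log2 ratio to 0 min against min of flavopiridol in each fraction, for the ER chaperones (circles), the UPR transcription factors (squares) and all genes tested (triangles), as mean and SD over 3 replicates. The median of the factors reaches between -3.2 and -3.7 at 240 min in each fraction, with Xbp1 and Atf4 below it and Ddit3 and Atf6 above it. In the membrane fraction the median of the chaperones stays above 0 until 120 min and ends at -0.90.

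Half-lives were fitted as single exponentials, as a description. In total RNA that of Atf4 was 33.0 ± 0.6 min (SD over the 3 replicate series) and that of Xbp1 48.3 ± 10.0 min. Those of Hspa5, Hsp90b1, Pdia4 and Calr were 110 ± 24, 172 ± 3, 180 ± 11 and 202 ± 14 min. Pdia3 and Atf6 had 360 ± 77 and 364 ± 35 min, which are within each other's spread. The Canx series gave 528, 1255 and 230 min, so its pooled value of 413 min is loose. For Ddit3, 157 ± 20 min rested on a poor fit (r squared 0.558), as its ratios levelled off after 120 min. In the cytosol no finite half-life was obtained for Canx and Atf6, and the Calr fit (r squared 0.028) describes no decay. These values move with the scaling: centred on the median gene, total Atf4 and Xbp1 had 48.5 and 64.4 min and Hspa5 172 min, and Canx, Pdia3 and Atf6 had no finite value.

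Membrane and cytosol were compared next, since the chaperone mRNAs encode secretory proteins. At 60 min the 5 chaperones that could be tested were each higher, relative to their own start, in the membrane fraction. For Hsp90b1 these ratios were 1.35, 1.12 and 1.40 in the membrane fraction and 0.671, 0.636 and 0.674 in the cytosol. For Pdia3 they were 1.22, 1.14 and 1.29 against 0.704, 0.698 and 0.821. For Pdia4 they were 1.20, 0.987 and 1.18 against 0.698, 0.737 and 0.638. Calr had 1.22, 0.994 and 1.18 against 0.812, 0.772 and 0.896. Membrane and cytosol did not overlap in any of these 4 genes. Canx had 0.986, 1.03 and 0.995 in the membrane fraction and a wide spread of 0.624, 0.476 and 0.164 in the cytosol, again without overlap.

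Of the 9 members tested at 60 min, 5 were higher in the membrane fraction and 0 lower, against 8.36% of all genes higher and 23.6% lower. The differences in log2 ratio, with SE and limma adjusted p, were 0.96 ± 0.09 for Hsp90b1 (7.59e-06), 0.72 ± 0.09 for Pdia3 (1.74e-05) and 0.70 ± 0.13 for Pdia4 (0.000453). They were 0.45 ± 0.09 for Calr (0.000764) and 1.46 ± 0.37 for Canx (0.00627). Among all genes tested these lay at the 97.0, 93.9, 93.5, 87.4 and 99.4 percentiles. The Calr call was lost without replicate 1 (0.38, adjusted p = 0.0559) and the Canx call without replicate 2 (1.63, adjusted p = 0.0744). The factors showed no difference at 60 min that passed, and their 95% confidence intervals were -0.18 to 0.49 for Xbp1, -0.29 to 0.27 for Atf4, -0.39 to 0.22 for Ddit3 and -0.20 to 0.26 for Atf6. The median difference of all genes was -0.19 at 60 min, and all 5 chaperone calls stood when libraries were centred on the median gene or on 40 ribosomal protein genes.

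**Figure D4:**
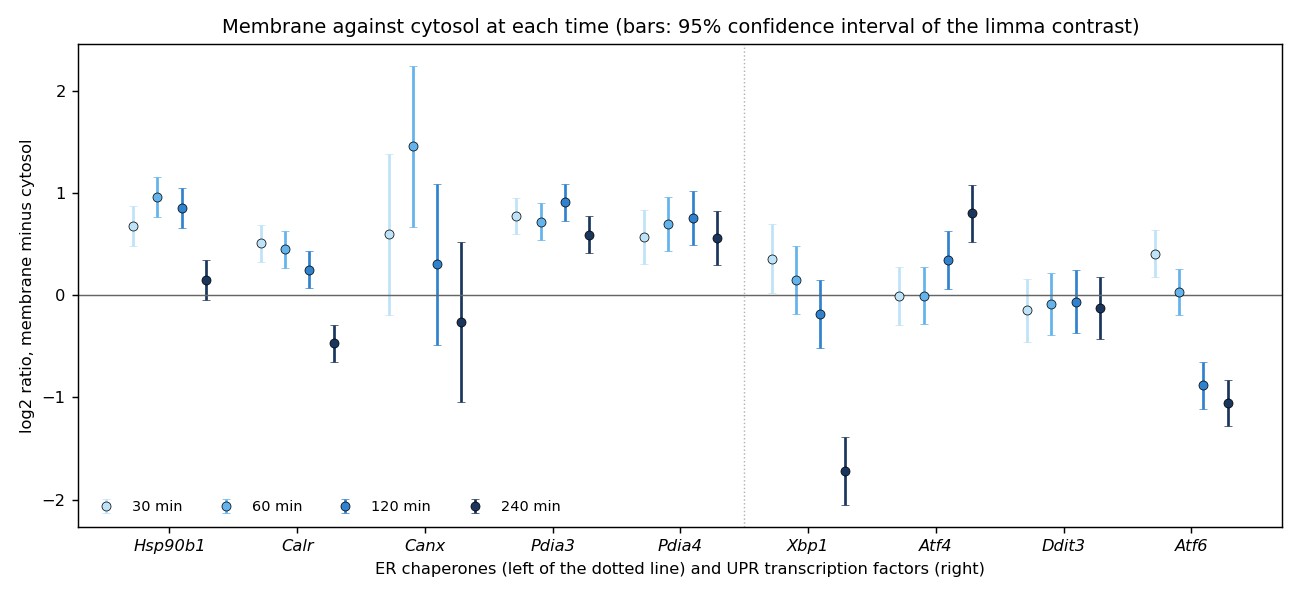
Difference in log2 ratio, membrane minus cytosol, for 9 members at 30, 60, 120 and 240 min (light to dark), with bars for the 95% confidence interval of the limma contrast. Hsp90b1, Pdia3 and Pdia4 lie well above 0 through 120 min, Calr moves from 0.51 to -0.47, Xbp1 and Atf6 move below 0 to -1.72 and -1.06, and Atf4 moves up to 0.80.

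The same contrast at 30 and 120 min was added after the data had been seen. At 30 min 5 members were higher and 0 lower, against 3.83% and 2.61% of all genes. They were Pdia3 (0.77 ± 0.09), Hsp90b1 (0.68 ± 0.09), Pdia4 (0.57 ± 0.13), Calr (0.51 ± 0.09) and Atf6 (0.41 ± 0.11). These calls hung on all 3 replicates, with 0 left without replicate 1 and 2 without replicate 2 or 3. With a block for harvest 3 were left, and Pdia4 (adjusted p = 0.0684) and Atf6 (adjusted p = 0.0743) did not pass. At 120 min 5 were higher and 1 lower, against 13.2% and 24.4% of all genes. Pdia3 stood at 0.91 ± 0.09, Hsp90b1 at 0.86 ± 0.09 and Pdia4 at 0.75 ± 0.13, and Atf6 at -0.88 ± 0.11. Calr (0.25 ± 0.09) and Atf4 (0.35 ± 0.13) also passed at 120 min, but neither did without replicate 1, 2 or 3. The Canx difference at 120 min (0.30 ± 0.37) had an interval from -0.48 to 1.09.

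By 240 min the members had split. Pdia3 kept 0.840, 0.785 and 0.806 in the membrane fraction and 0.503, 0.534 and 0.575 in the cytosol, a difference of 0.59 ± 0.09 (limma, adjusted p = 4.19e-05). Pdia4 kept 0.496, 0.496 and 0.494 against 0.298, 0.289 and 0.441, a difference of 0.56 ± 0.13 (adjusted p = 0.00223) that was lost without replicate 1 (0.47, adjusted p = 0.101) or 2 (0.45, adjusted p = 0.0735). Hsp90b1 no longer passed, with 0.527, 0.541 and 0.533 against 0.489, 0.483 and 0.471 (0.15 ± 0.09, adjusted p = 0.239, interval -0.05 to 0.35). Calr had turned, with 0.558, 0.571 and 0.541 in the membrane fraction against 0.769, 0.729 and 0.822 in the cytosol, a difference of -0.47 ± 0.09 (adjusted p = 0.000427). The soluble lectin chaperone was thus the only chaperone tested that was lower in the membrane fraction at 240 min with a call. Its groups did not overlap at 60 or at 240 min. Canx had -0.26 ± 0.37 (adjusted p = 0.628), with an interval from -1.05 to 0.53 that includes the Calr value. A difference between Calr and Canx was not tested.

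The factors split too. Xbp1 kept 0.0114, 0.0153 and 0.0158 in the membrane fraction and 0.0423, 0.0392 and 0.0591 in the cytosol, a log2 difference of -1.72 ± 0.16 (limma, adjusted p = 4.2e-07). Atf6 kept 0.465, 0.552 and 0.551 in the membrane fraction and 1.06, 1.11 and 1.09 in the cytosol, a difference of -1.06 ± 0.11 (adjusted p = 1.23e-06). Atf4 went the other way, with 0.0468, 0.0598 and 0.0501 against 0.0260, 0.0307 and 0.0329, a difference of 0.80 ± 0.13 (adjusted p = 0.000165). Ddit3 differed by -0.12 ± 0.15, with an interval from -0.43 to 0.18. At 240 min 3 of the 9 members were thus higher in the membrane fraction and 3 lower, against 17.5% and 15.8% of all genes. These were Pdia3, Pdia4 and Atf4 against Calr, Xbp1 and Atf6.

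The time courses behind these differences had different shapes. In the membrane fraction Hsp90b1 had ratios of 1.25, 1.14 and 1.36 at 30 min and still 1.28, 1.13 and 1.43 at 120 min. Pdia3 had 1.10, 1.10 and 1.19 at 30 min and 1.19, 1.14 and 1.37 at 120 min. Neither gene dropped below its start in any membrane library until after 120 min. Membrane Calr had 1.09, 1.01 and 1.14 at 120 min and membrane Pdia4 1.01, 0.943 and 1.09, so both were still near their start. Membrane Canx had 0.783, 0.859 and 0.862 at 30 min and 1.02, 0.966 and 1.09 at 120 min, a change of 0.30 ± 0.12 that did not pass (limma, adjusted p = 0.0628). Cytosolic Pdia3, in contrast, was down to 0.637, 0.676 and 0.667 by 30 min and had 0.648, 0.688 and 0.633 at 120 min. Cytosolic Calr had 0.829, 0.730 and 0.821 and then 0.903, 0.901 and 0.907, a log2 change of 0.19 ± 0.08 that did not pass (adjusted p = 0.0832). Changes within these windows were tested after the data had been seen. From 30 to 120 min 4 of 10 members fell in the membrane fraction, which were all 4 factors and no chaperone, and 0 rose, against 52.5% and 2.37% of all genes. The 6 chaperone changes in that window ranged from -0.18 (Hspa5) to 0.30 (Canx), where the median gene changed by -0.60. Centred on the median gene 6 members rose in this window and 2 fell, against 2291 and 2378 of all 12408 genes. Centred on ribosomal protein genes 1 rose and 3 fell, against 377 and 5240 of all genes.

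From 120 to 240 min 9 of the 10 members fell and 0 rose in the membrane fraction, against 37.6% and 3.72% of all genes, and Ddit3 did not pass (-0.40 ± 0.19, limma adjusted p = 0.122). Hspa5 fell by 2.68 ± 0.33 on the log2 scale (adjusted p = 0.000138), from 1.12, 0.907 and 0.873 to 0.19, 0.193 and 0.0924. Hsp90b1 fell by 1.26 ± 0.12 (adjusted p = 2.67e-05), Pdia4 by 1.03 ± 0.10 (adjusted p = 3.72e-05) and Calr by 0.95 ± 0.10 (adjusted p = 4.26e-05). Xbp1 fell by 4.21 ± 0.17 in this window (adjusted p = 1.46e-06), after 1.78 ± 0.17 from 30 to 120 min, so that its fall steepened, whereas Atf4 lost 2.40 ± 0.14 first and 1.07 ± 0.14 later. In the cytosol 8 of 9 members fell from 120 to 240 min and 0 rose, against 47.9% and 2.78% of all genes, but between 4 and 5 did when a replicate was left out. Calr (-0.23 ± 0.08, adjusted p = 0.0447) and Ddit3 (-0.34 ± 0.11, adjusted p = 0.0233) lost their calls without any 1 of the replicates, Pdia3 without replicate 1 or 2, and Atf6 without replicate 2 or 3.

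Atf6, the factor whose precursor is an ER membrane protein, was the member that rose in the cytosol. There it had ratios of 0.871, 0.710 and 0.741 at 30 min against 1.35, 1.59 and 1.5 at 120 min, a rise of 0.94 ± 0.12 on the log2 scale (limma, adjusted p = 0.000148) at the 98.9 percentile of all genes. No other of the 9 members rose, so 1 of 9 did in this window, against 1.44% of all genes, and 3 fell, against 48.8%. Its nuclear ratios were 1.55, 1.5 and 1.36 at 120 min. In the membrane fraction it fell over the same window from 1.06, 1.02 and 0.990 to 0.834, 0.731 and 0.840 (-0.35 ± 0.11, adjusted p = 0.0161), a call lost without any 1 replicate. At 120 min its membrane and cytosolic libraries did not overlap.

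Slopes were compared directly between fractions through the interaction of time with fraction. Between membrane and cytosol 3 of 9 members had a lower slope in the membrane fraction and 0 a higher one, against 1.76% and 4.94% of all genes. They were Xbp1 (-0.60 ± 0.10 per h, limma adjusted p = 0.000806), Atf6 (-0.41 ± 0.08, adjusted p = 0.00207) and Calr (-0.29 ± 0.05, adjusted p = 0.000806). Atf6 lost its call without replicate 1 (-0.39, adjusted p = 0.0607). Calr and Xbp1 lost theirs with 30, 60 and 120 min only, and Xbp1 also with 180 min as the last time (adjusted p = 0.108). By the extract protocol the fractions of 1 harvest came from the same cells, and with a block for harvest (replicate number and time) 4 members were lower and 1 higher. Hsp90b1 (-0.19, adjusted p = 0.0469) and Atf4 (0.25, adjusted p = 0.00241) then passed as well. A slope assumes a straight line, and for Calr the line joins an early level above 1 to a late fall in the membrane fraction with a flat course in the cytosol. Pdia3 and Pdia4 had slope differences of -0.04 and -0.02 per h, with intervals from -0.14 to 0.05 and from -0.14 to 0.10, and their log2 differences in level stayed between 0.56 and 0.91 at all 4 times.

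The nucleus was set against the cytosol in the same way. Slopes of 4 members were lower in the nucleus and 1 was higher, against 8.3% and 12.3% of all genes. Calr (-0.33 ± 0.06 per h, limma adjusted p = 0.00129), Hsp90b1 (-0.31 ± 0.06, adjusted p = 0.00163), Canx (-0.52 ± 0.17, adjusted p = 0.0304) and Xbp1 (-0.40 ± 0.12, adjusted p = 0.019) were lower. Atf4 was higher (0.53 ± 0.14, adjusted p = 0.00843). The Xbp1 value was -0.049 with a pseudocount of 0.1 (adjusted p = 0.551), and with 180 min as the last time it did not pass (-0.51, adjusted p = 0.216). With the block for harvest Atf6 also passed as lower (-0.22, adjusted p = 0.0267). Nuclear Atf4 had ratios of already 0.242, 0.285 and 0.256 at 30 min, where cytosolic Atf4 had 0.557, 0.577 and 0.612. Ddit3 was also low early in the nucleus, with 0.216, 0.297 and 0.325 at 30 min where the cytosol had 0.592, 0.615 and 0.557. Nucleus and cytosol did not overlap at 30 min in either gene. These slope calls hung on single replicates: without replicate 1, 2 or 3 between 1 and 2 members stayed lower and 0 higher. Atf4 reached adjusted p = 0.121, 0.0516 and 0.0624, and Xbp1 0.0568, 0.0878 and 0.23, without replicates 1, 2 and 3. Canx lost its call without replicate 1 or 2, Hsp90b1 without replicate 2 (0.0646) and Calr without replicate 3 (0.0527).

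The spread between replicates differed among the members. Hspa5 in the nucleus had a replicate SD of 0.90 on the log2 scale, larger than that of 92.9% of genes, and its ratio in replicate 2 at 120 min (0.102) lay far from 0.702 and 0.647. Canx in the cytosol had a replicate SD of 0.67, larger than that of 87.0% of genes, with 1.04, 0.617 and 0.528 at 240 min. Calr in total RNA was among the tightest, with 0.07, smaller than all but 2.3% of genes. In the cytosol Hspa5 was listed in all 3 replicates at 60 min (0.886, 0.451 and 0.465), in replicate 3 at 30 min (0.527) and in no library at 120 or 240 min. Its membrane ratios were 1.31, 0.974 and 0.999 at 30 min.

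Other genes of the pathway were taken from lists of its working parts. Of 30 ER folding enzymes and cochaperones tested at 60 min, 15 were higher in the membrane fraction and 1 lower, against 8.36% and 23.6% of all genes, and the median difference was 0.50 against -0.19 for all genes. Ero1a, the oxidase that reoxidizes protein disulfide isomerase, had a difference of 1.03 and a slope in the membrane fraction of 0.15 per h, which passed as a rise. Its ratio in the membrane fraction was 1.65 ± 0.04 (SD, n = 3) at 240 min and 0.666 ± 0.114 in the cytosol. Rcn2, a calcium-binding protein of the ER, had 1.5 ± 0.1 against 0.955 ± 0.109 at that time. Hspa13, another Hsp70 of the secretory pathway, fell fast, with 0.0817 ± 0.0168 left in total RNA at 240 min. Dnajb9, a cochaperone of BiP and an XBP1 target, fell further still, to 0.0136 ± 0.0027, and was listed in 47 libraries. Over the slopes in total RNA, 21 of 36 genes of this list fell and 1 rose, against 56.9% and 3.39% of all genes, with a median of -0.21 per h against -0.22 for all genes.

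The translocon, which threads proteins into the ER, and signal recognition gave 16 of 27 genes higher in the membrane fraction at 60 min and 2 lower (median 0.49). Of all genes 8.36% were higher at that time and 23.6% lower. Rpn2, a subunit of the sugar-transferring complex, had 1.31 ± 0.15 in the membrane fraction and 0.615 ± 0.172 in the cytosol. Stt3b, a catalytic subunit of the same complex, had 1.09 ± 0.08 and 0.739 ± 0.038. In ER-associated degradation, which returns misfolded proteins to the cytosol, 12 of 21 were higher and 2 lower (median 0.33). Rnf139, an ER ubiquitin ligase, had no difference at 60 min that passed (0.10) and was lower in the membrane fraction at 240 min (-1.15).

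Chaperones that work outside the ER went the other way at 60 min, with 0 of 23 higher in the membrane fraction and 18 lower (median -0.50). The shares of all genes were 8.36% higher and 23.6% lower. Hsp90ab1, the cytosolic Hsp90, had 0.510 ± 0.036 in the membrane fraction and 1.02 ± 0.08 in the cytosol. Hspa9, the Hsp70 of mitochondria, had 0.543 ± 0.025 and 0.968 ± 0.056, and Trap1, the mitochondrial Hsp90, had 0.729 ± 0.048 and 1.09 ± 0.05. Hsp90aa1 had a difference of -0.50 that did not pass, and Hspa8 was listed in 37 libraries and was not tested here. At 60 min the ER Hsp90 was thus higher in the membrane fraction and its cytosolic relative Hsp90ab1 lower, each with its own call, and the difference between the genes was not tested.

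**Figure D5:**
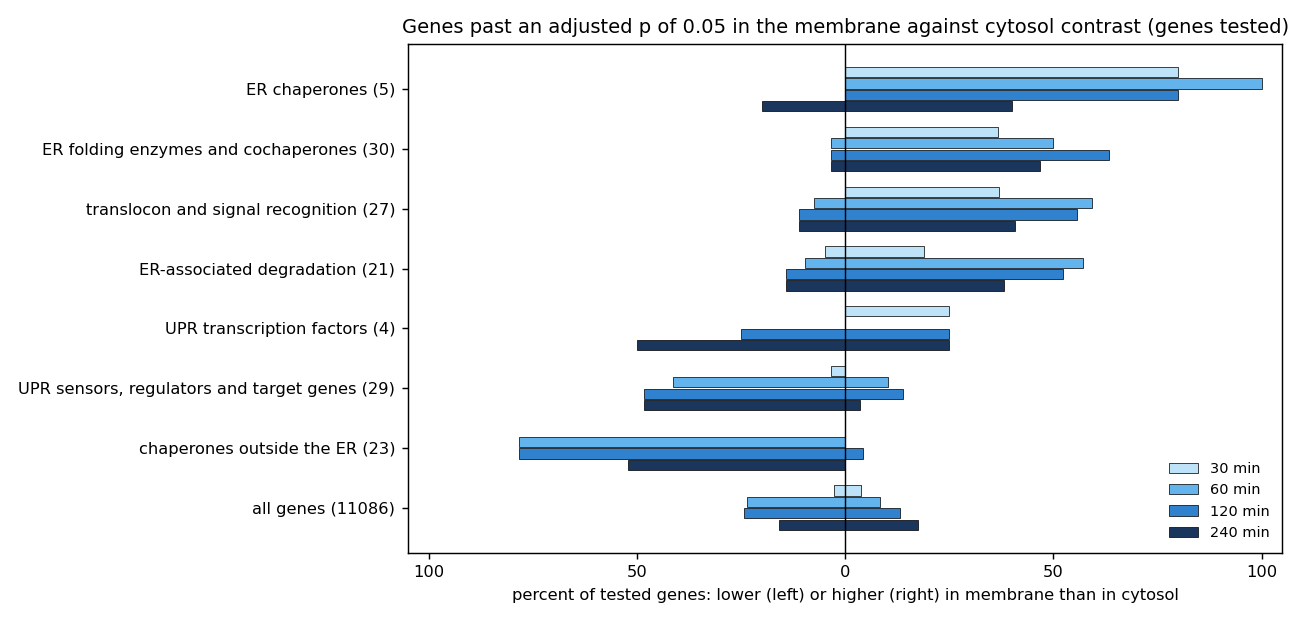
Percent of the tested genes of each list that were lower (left) or higher (right) in the membrane fraction than in the cytosol at an adjusted p under 0.05, at 30, 60, 120 and 240 min (light to dark), with the number of genes tested in brackets. The 4 lists of ER chaperones, ER folding, translocon with signal recognition, and ER-associated degradation extend to the right at 60 min (5 of 5, 15 of 30, 16 of 27 and 12 of 21 genes). Chaperones outside the ER extend to the left (18 of 23), and all genes more to the left (23.6%) than to the right (8.36%).

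The sensors, regulators and targets of the UPR were a mixed list. In total RNA 19 of 32 fell and 5 rose, against 56.9% and 3.39% of all genes (median slope -0.19 per h). Ern1, which encodes IRE1, had 0.454 ± 0.057 left at 240 min and a slope of -0.06 per h that did not pass, whereas Eif2ak3, which encodes PERK, fell by 0.62 per h to 0.172 ± 0.018. Of the targets, Ddit4, a stress-induced inhibitor of mTOR, and Trib3, an inhibitor of ATF4 signalling, kept 0.0412 ± 0.0017 and 0.0727 ± 0.0230. Nupr1, a small stress-induced nuclear protein, rose to 3.72 ± 0.15 in total RNA, and Psat1, an enzyme of serine synthesis, to 1.80 ± 0.03. Slc3a2, the heavy chain of amino acid transporters, rose in total RNA to 2.10 ± 0.07 and at 240 min stood at 12.3 ± 2.4 in the cytosol but 1.3 ± 0.2 among membrane libraries. Herpud1 and Atf3 were listed in 0 libraries and Ppp1r15a in 6, so they carry no test. At 60 min 3 of 29 genes of this list were higher in the membrane fraction and 12 lower, against 8.36% and 23.6% of all genes.

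The genes with time courses most like that of Atf4 over the 48 libraries were Zfp157, Zfp59 and Bet1l, with root mean square differences in log2 ratio of 0.45, 0.46 and 0.47. Hspa5 was not listed in all libraries, so no such genes are named for it.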

How the data were processed

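The authors aligned the reads with STAR 2.7.6, estimated expression with RSEM 1.3.3 on mm10, scaled libraries on genes known for long half-lives and divided each series by its 0 min value, so the deposited values are ratios with no counts and no depth. That scaling sets the level of every ratio, and a slow gene's direction can turn with it. Titles give 240 min as the last time and the protocol 180 min, and titles were used. Here log2 ratios, with no pseudocount, of genes listed in every library of a comparison went into limma (version 3.58.1, R 4.3.3) with a trended prior variance, and p-values were adjusted by Benjamini-Hochberg over all genes, with 0.05 as the threshold. Slopes were fitted on time, differences of slopes as the interaction of time with fraction, and level differences and window changes as contrasts of means per fraction and time. Half-lives were least squares fits with a free starting level (scipy 1.17.1), and an error is an SD over replicates or an SE, as stated. The fits were checked on simulated data.

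The members and lists were chosen with earlier results of these data known. The genes named outside the members were picked by a rule (the 3 lowest and 3 highest total slopes of each list), or fixed as relatives of the members and UPR genes, and likeness to Atf4 is the root mean square difference over 48 libraries. Promoters are RefSeq windows of GRCm38.p6, and gene models are GENCODE M21. Of the 48 libraries 27 correlated best with others of their own number, out of 3 numbers, so a shared origin across times cannot be set aside. Pairs mostly correlated under 0.1, and the main fits did not use replicate numbers as pairs across times. Per the labels' extract protocol all fractions of a harvest came from 1 lot of cells. A block for harvest (replicate number and time, as the titles give them) is therefore given where it changed a call. Cytosol and membrane pairs of a harvest correlated weakly but all above 0 (median 0.049, lowest 0.032, 1 of 12 over 0.1). Other scalings, a pseudocount, left-out replicates, a replicate block, other last times and other half-life fits were tried as alternatives. Not every gene that the rule selects is described.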

Additional observations from a re-analysis of the deposited data

Results flagged for a closer look

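Slopes that differed between fractions by the interaction test are listed here as values. Between membrane and cytosol the log2 slope per h was lower in the membrane fraction by -0.29 for Calr (limma, adjusted p = 0.000806), by -0.60 for Xbp1 (adjusted p = 0.000806) and by -0.41 for Atf6 (adjusted p = 0.00207). Calr and Xbp1 kept these calls without any 1 of the replicates and lost them with 30, 60 and 120 min only, and Atf6 lost its call without replicate 1 (-0.39, adjusted p = 0.0607). With 180 min as the last time the Xbp1 difference did not pass (adjusted p = 0.108).

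Between nucleus and cytosol the slope was lower in the nucleus by -0.33 for Calr, -0.31 for Hsp90b1, -0.52 for Canx and -0.40 for Xbp1, and higher by 0.53 for Atf4 (limma, adjusted p from 0.00129 to 0.0304). Each of these 5 calls was lost without at least 1 of the replicates, and with 30, 60 and 120 min only 0 of the 5 passed. The nuclear library of replicate 1 at 30 min stood apart, and without it the Atf6 slope difference of -0.28 also passed (adjusted p = 0.0382).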

How the results depend on the processing

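The authors' scaling matters most for the slow members. Centred on the median gene, 5 members fell in total RNA, while 3 fell and 2 rose among nuclear libraries, 3 fell and 5 rose among cytosolic libraries and 4 fell among membrane libraries. With this centring about as many of all genes fell as rose, so these counts cannot be set against the shares of the authors' scaling. Total slopes turned to 0.084 per h for Canx, 0.057 for Pdia3 and 0.060 for Atf6. Nuclear slopes turned to 0.16 for Pdia3, 0.041 for Ddit3 and 0.23 for Atf6, cytosolic slopes to 0.10 for Hsp90b1, 0.27 for Calr and 0.17 for Pdia3, and membrane slopes to 0.080 for Canx and 0.11 for Pdia3. Membrane minus cytosol turned to -0.019 per h for the slope of Ddit3, to 0.17 and 0.085 for Atf4 and Ddit3 at 60 min, to 0.014 for Atf4 at 30 min and to 0.080 for Ddit3 at 120 min. From 30 to 120 min 4 members rose in the cytosol, with Hsp90b1, Pdia3 and Pdia4 at 0.33, 0.46 and 0.17, and 2 fell and 6 rose among membrane libraries, with Hspa5, Calr, Pdia4 and Atf6 at 0.42, 0.53, 0.47 and 0.24. From 120 to 240 min 2 fell and 1 rose in the cytosol, with Calr, Canx, Pdia3, Ddit3 and Atf6 at 0.28, 0.25, 0.21, 0.16 and 0.058.

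Centred on ribosomal protein genes, 1 member rose in the cytosol and the Calr slope there was 0.024, the Ddit3 slope difference was -0.0063, Atf4 and Ddit3 stood at 0.11 and 0.026 at 60 min, Atf4 at 0.035 at 30 min and Ddit3 at 0.010 at 120 min. From 30 to 120 min 2 rose in the cytosol (Pdia3 0.076) and 1 among membrane libraries (Calr 0.047), and 5 fell in the cytosol from 120 to 240 min. Of all genes, 523 of 11979 had a rising cytosolic slope with this centring. In the windows 252 of 11979 genes rose in the cytosol and 377 of 12408 among membrane libraries, and 5201 fell late in the cytosol. With 30, 60 and 120 min only, 5 fell in total RNA, 3 among nuclear and 4 among membrane libraries, and 1 rose in the cytosol and 1 among membrane libraries. Slopes turned for nuclear Pdia3 and Atf6 (0.012 and 0.33), cytosolic Calr (0.13) and membrane Hsp90b1, Canx and Pdia3 (0.017, 0.18 and 0.074). Between membrane and cytosol 1 member stayed lower, and Hsp90b1, Pdia3 and Pdia4 turned to 0.085, 0.10 and 0.11, and between nucleus and cytosol 0 were lower and 0 higher, with Pdia3, Pdia4 and Ddit3 at 0.041, 0.079 and -0.13. With 180 min as the last time 1 member rose in the cytosol and 1 had a higher slope in the membrane fraction than in the cytosol.

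Leaving out 1 replicate gave 1 to 2 lower and 0 to 0 higher members between nucleus and cytosol, 0 to 2 higher in the membrane fraction at 30 min, 3 to 3 at 120 min, and 4 to 5 that fell in the cytosol from 120 to 240 min. Membrane minus cytosol slopes ranged from -0.084 to 0.065 for Pdia4 and from -0.016 to 0.010 for Ddit3, and the nucleus minus cytosol slope of Pdia4 from -0.13 to 0.041. Level differences ranged from -0.033 to 0.043 for Atf4 and from -0.081 to 0.12 for Atf6 at 60 min, from -0.052 to 0.048 for Atf4 at 30 min and from -0.22 to 0.15 for Ddit3 at 120 min. Changes in the cytosol ranged from -0.026 to 0.025 for Pdia3 from 30 to 120 min and from -0.80 to 0.18 for Canx from 120 to 240 min.

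The gap between chaperones and factors at 240 min fell to 1.09 in total RNA, 1.28 for nuclei, 1.56 for the cytosol and 1.61 for membranes with a pseudocount of 0.1, and the means of the lists gave 1.67 in total RNA, 1.89 for nuclei and 2.04 for the cytosol. A replicate block ended the calls of the Ddit3 slope in the nucleus (adjusted p = 0.0631) and of Atf4 between membrane and cytosol at 120 min (adjusted p = 0.0612). With a block for harvest, in the comparison of fractions, 1 member had a higher slope in the membrane fraction than in the cytosol (Atf4) and Hsp90b1 joined those with a lower one, Atf6 joined the lower slopes of nucleus against cytosol, and 3 members were higher at 30 min, without Pdia4 and Atf6. It changed no other member's call in those comparisons. The Xbp1 and Atf4 slopes kept their sign and call under all alternatives run. Of the alternative values of single members, 1182 kept their direction and side of the threshold, 108 lost a call, 19 gained one and 57 turned. Half-lives moved by more than the SD over replicates in 26 of 26 finite values when centred on the median gene, with the level at 0 min fixed in 22 and not in 14, with 30, 60 and 120 min only in 20 and not in 11, and with a straight line in 17 and not in 20. Leaving out replicate 1, 2 or 3 moved 0 of 37 each. That SD comes from the same replicates, so this count was nearly fixed in advance and says nothing of how the half-lives depend on single replicates. No finite value came of 18 half-life alternatives. The cause was not tested for any of these. Depth is unknown, so no limit of detection can be given, and 3 replicates limit the precision.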

Other observations

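Slopes in total RNA were also counted in the remaining lists of the pathway, where 56.9% of all genes fell and 3.39% rose. Of 23 genes of ER-associated degradation tested, 20 fell and 0 rose (median -0.28 per h), of 28 of the translocon and signal recognition 20 fell and 0 rose (median -0.21), and of 26 chaperones outside the ER 16 fell and 0 rose (median -0.10), where the median of all genes was -0.22. By 240 min the contrast of membrane with cytosol had 14 of 30 folding enzymes higher and 1 lower, 11 of 27 translocon genes higher and 3 lower, 8 of 21 degradation genes higher and 3 lower, and 0 of 23 chaperones outside the ER higher and 12 lower, against 17.5% of all genes higher and 15.8% lower. Of 29 UPR sensors, regulators and targets 1 was higher and 14 lower at 240 min.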
